A study of Mus musculus with 6 samples.

Results

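In haematopoietic stem cells (HSCs) from DMSO-treated mice, 665 chromatin regions were called accessible in the libraries DMSO 2 and DMSO 3 and not in DMSO 1. They were 0.801% of the 82993 regions called in any library of the study. HSCs are the rare bone marrow cells that sustain all blood lineages, and they were sorted here as lineage-negative, Sca-1-positive, c-Kit-positive cells that lacked CD48 and carried CD150. ATAC-seq, in which a transposase cuts open DNA and inserts sequencing adapters, was run on about 5000 such cells per library. The mice were wild-type C57BL/6J animals that had received an intraperitoneal injection either of DMSO (3 libraries) or of tunicamycin at 2 mg/kg (3 libraries). The labels give no age or sex and do not say whether the libraries of a group came from separate animals, so differences between libraries may be technical.

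Each library had its own list of peaks, and peaks of the 6 lists that overlapped by at least 1 bp were merged into union regions. The members described here were chosen by these calls: a peak of DMSO 2 and a peak of DMSO 3 in the region, no peak of DMSO 1, and any outcome in the tunicamycin lists. Their presence in DMSO 2 and 3 and their absence from DMSO 1 are therefore no finding, and their peak values in DMSO 2 and 3 are given as a description. The calls in the tunicamycin libraries and the position relative to genes were not used to choose them. Chromatin without a call is not thereby closed, and the number of reads behind each list is unknown. Fold enrichments of different lists rest on different backgrounds, so they are set side by side below as values and not as a measure of change.

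Accessible chromatin in a cell falls into promoters, which lie at gene starts and are often open in most cell types, and distal elements such as enhancers, which lie inside introns or between genes and are more cell-type specific. Peak lists also hold weak intervals that are near the detection limit of the peak caller, and intervals in repeated or duplicated sequence where reads pile up. Position, width, rank within the list, the distance between the summits of 2 libraries and recurrence in other libraries are the usual descriptors by which such intervals are told from regulatory elements.

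The DMSO lists differed in length, with 62478 peaks in DMSO 1, 38217 in DMSO 2 and 28501 in DMSO 3, while the tunicamycin lists held 44952, 56865 and 47789 peaks. Genes of the HSC identity list (38 genes) had a region in the gene or within 1 kb of it in 33 to 36 cases per library, and genes of the lymphoid list (25 genes) in 13 to 19. The longest DMSO list is thus the one from which the members were missing. Of the 22440 regions called in both DMSO 2 and DMSO 3, the members made up 2.96% (exact binomial 95% interval 2.75 to 3.19). By the same count, 9.17% of the 23974 regions of DMSO 1 and 3 were missing from DMSO 2, and 34.7% of the 33321 regions of DMSO 1 and 2 were missing from DMSO 3. With every list limited to its 28501 peaks of lowest q-value, the 3 shares were 7.87%, 7.89% and 18.0%. All intervals below are of this exact kind, cover counting error only, and treat regions as independent, which neighbouring regions of one library are not. Differences between sets of regions were not tested.

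Few members lay at gene starts, so the promoters they reached are shown first. Members overlapped 11 of the 32851 promoter windows in a RefSeq table of GRCm38.p6, which is the mm10 assembly. Each window runs from 250 bases before to 50 bases after a transcription start. The 11 windows belonged to 10 genes: Traf1, Themis (2 starts), Apba3, Ahrr, Tmem109, the predicted protein-coding gene Gm5373 and the lncRNA genes Gm39044, Gm33368, Gm39282 and Gm10847. The first 5 sequences below are member promoters chosen after their values were seen, to show the range from CpG-poor to CpG-rich, and the sixth is the promoter of Hspa5, which encodes the ER chaperone BiP and was called in all 6 libraries. All are written 5′ to 3′ on the strand of the gene. Capitals mark matches, on either strand, to any of the 12 motifs searched.

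Traf1 (TNF receptor-associated signalling adaptor; chr2:34961723-34962022, minus strand): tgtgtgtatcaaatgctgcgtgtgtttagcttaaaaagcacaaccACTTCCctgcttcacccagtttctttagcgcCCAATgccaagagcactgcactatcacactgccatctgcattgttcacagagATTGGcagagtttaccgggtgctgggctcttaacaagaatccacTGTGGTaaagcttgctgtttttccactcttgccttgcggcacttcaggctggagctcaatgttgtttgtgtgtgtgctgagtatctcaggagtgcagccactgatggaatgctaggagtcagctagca

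Themis (thymocyte selection protein; second start, chr10:28668145-28668444, plus strand): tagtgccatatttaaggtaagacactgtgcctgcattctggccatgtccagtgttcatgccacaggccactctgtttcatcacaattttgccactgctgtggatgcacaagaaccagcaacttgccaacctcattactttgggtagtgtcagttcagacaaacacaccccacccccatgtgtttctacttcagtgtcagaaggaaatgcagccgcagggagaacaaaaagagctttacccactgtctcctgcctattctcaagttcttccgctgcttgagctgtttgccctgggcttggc

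Gm33368 (lncRNA; chr8:120874548-120874847, minus strand): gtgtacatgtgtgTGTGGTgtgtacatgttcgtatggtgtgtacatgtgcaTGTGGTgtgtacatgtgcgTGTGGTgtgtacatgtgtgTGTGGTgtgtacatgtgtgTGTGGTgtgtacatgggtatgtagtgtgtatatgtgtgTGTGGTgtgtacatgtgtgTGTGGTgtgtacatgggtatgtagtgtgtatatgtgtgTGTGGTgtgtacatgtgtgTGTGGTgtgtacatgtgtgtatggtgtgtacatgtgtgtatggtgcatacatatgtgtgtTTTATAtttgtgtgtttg

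Ahrr (repressor of the aryl hydrocarbon receptor; chr13:74292282-74292581, minus strand): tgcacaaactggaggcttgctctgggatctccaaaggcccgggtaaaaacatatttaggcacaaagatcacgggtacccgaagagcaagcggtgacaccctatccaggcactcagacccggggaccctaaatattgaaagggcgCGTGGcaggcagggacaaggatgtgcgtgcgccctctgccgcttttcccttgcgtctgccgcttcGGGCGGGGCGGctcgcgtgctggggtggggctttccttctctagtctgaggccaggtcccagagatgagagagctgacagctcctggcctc

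Tmem109 (membrane protein of the ER and nucleus; chr19:10881694-10881993, minus strand): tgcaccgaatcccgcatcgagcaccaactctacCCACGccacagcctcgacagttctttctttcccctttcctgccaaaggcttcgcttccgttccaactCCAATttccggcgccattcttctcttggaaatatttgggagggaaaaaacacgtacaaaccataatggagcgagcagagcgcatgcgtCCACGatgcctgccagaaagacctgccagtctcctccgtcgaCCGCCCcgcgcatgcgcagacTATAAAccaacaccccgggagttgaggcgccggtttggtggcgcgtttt

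Hspa5 (called in all 6 libraries; chr2:34771840-34772139, plus strand): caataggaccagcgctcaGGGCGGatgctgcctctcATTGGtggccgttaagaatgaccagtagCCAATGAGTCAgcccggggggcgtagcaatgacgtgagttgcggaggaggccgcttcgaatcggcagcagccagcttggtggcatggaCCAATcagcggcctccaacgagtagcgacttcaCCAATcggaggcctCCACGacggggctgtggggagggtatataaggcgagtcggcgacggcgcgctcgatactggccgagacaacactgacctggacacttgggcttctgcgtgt

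The member promoters were mostly poor in CpG, the dinucleotide that is dense in the promoters of broadly expressed genes. Their GC content had a median of 48.7% (43.3 to 60.3), with a median of 3 CpG dinucleotides per window (1 to 25). The 10672 promoters in regions called in all 3 DMSO libraries had a median GC content of 62.0% and a median of 22 CpG, and the 18433 promoters without a region in any library had 47.7% and 3. In these 2 measures the member promoters thus lay near the promoters that no library called. Promoters in regions missing from DMSO 3 alone had medians of 59.7% GC and 16 CpG, and those in regions missing from DMSO 2 alone 60.2% and 15. The exceptions among the members were Tmem109 with 25 CpG, the same number as Hspa5, Ahrr with 17, Apba3 with 12 and Gm10847 with 10.

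The motif searches covered both strands. The ETS core was written as GGAAGT, the GATA motif as AGATAA and the box bound by NF-Y as CCAAT. The E-box was CACGTG, the AP-1 motif TGANTCA and the cAMP response element TGACGTCA. For ATF4 the composite motif TGATGCAAT was used, and for RUNX factors TGTGGT. The SP and KLF box was GGGCGG, the TATA box TATAAA, and the motif of HOX with a TALE partner TGATTNAT. The ER stress element was represented by its part CCACG, which can overlap an E-box. The RUNX letters were present in 6 of the 11 member windows (Traf1, Gm39044, Gm5373, Gm33368, Gm39282 and Gm10847), against 16.8% of all windows. In the Gm33368 window printed above, these matches stand in a stretch made of a short repeated unit. The match in the Gm39282 window, which is not printed, also stands in a stretch rich in repeated gt. Repeats were not annotated in any window, so how many of the 6 windows match within repeats is unknown. The SP and KLF box and the part of the ER stress element were each in 3 of the 11 windows, against 35.7% and 32.8% of all windows. The ETS core, the NF-Y box and the TATA box were each in 2, against 23.8%, 37.4% and 13.6%. The E-box was in 1, against 7.15%. The GATA, AP-1, cAMP response element, ATF4 and HOX letters were in 0 of these windows, against 11.2%, 7.81%, 1.79%, 0.192% and 3.22% of all windows. A match describes these letters and does not show that a factor was bound.

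At the Traf1 promoter the peaks were shallow in every library that called it. The fold enrichment, which is the authors' ratio of the peak signal to background, was 3.04 in DMSO 2, 3.16 in DMSO 3, and 2.75, 3.47 and 2.88 in tunicamycin 1, 2 and 3. At Themis it was 4.72 and 6.19 in DMSO 2 and 3, and 5.63 and 4.32 in tunicamycin 1 and 3. At Ahrr it was 4.55 and 5.06 in DMSO 2 and 3, and no tunicamycin list held a peak. At Tmem109 it was 5.67 and 5.41 in DMSO 2 and 3, and 4.98 and 5.92 in tunicamycin 1 and 2. The region at Tmem109 was 1023 bp wide and was the only one of the 20 highest-ranked members that lay within 1 kb of a gene end.

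Over the whole set, members lay away from gene ends. At most 1 kb from the start or end of a protein-coding gene stood 31 of the 665 members (4.66%, 3.19 to 6.55), compared with 16.3% of the 11546 regions missing from DMSO 3 alone, 12.7% of the 2199 missing from DMSO 2 alone, 42.2% of the 21775 called in all 3 DMSO libraries, and 19.4% of all regions. Measured at the midpoint of each region, the share was 3.31% for members, and 2.96% of all bases between the first and last region of each chromosome lay that close to a gene end. The share depended on how regions were built. It was 19.6% when windows reaching 250 bp to either side of each summit replaced the peaks, a setting not computed for other sets. With every list limited to its 28501 peaks of lowest q-value it was 14.7%. Regions missing from DMSO 2 alone and from DMSO 3 alone then gave 21.4% and 16.6%. The table of starts was used without chromosome 18, where 30 members lie. Of the other 635 members, 31 (4.88%) had a start of any gene type within 1 kb. Besides Tmem109, members within 1 kb of a gene end included those at Rec8, a cohesin subunit of meiosis, Pkm, the pyruvate kinase of glycolysis, Lta, the cytokine lymphotoxin alpha, and Klf10, a zinc-finger transcription factor, all chosen after their values were seen.

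Inside a gene lay 322 members (48.4%, 44.6 to 52.3), against 59.1% and 58.0% of the regions missing from DMSO 3 alone and from DMSO 2 alone, 72.8% of the regions of all 3 DMSO libraries and 60.3% of all regions. By midpoint the share was 48.3% for members, and 38.8% of the bases of the same span lay inside a gene. Over 100 kb from any protein-coding gene lay 97 members (14.6%, 12.0 to 17.5), against 5.69%, 6.18%, 3.13% and 6.90% in the same order. The regions called in DMSO 3 and no other DMSO library came closest to the members in these shares, with 44.2% inside a gene, 3.31% near an end and 18.3% in deserts. Exons and introns could not be told apart with the gene table used here.

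**Figure D1:**
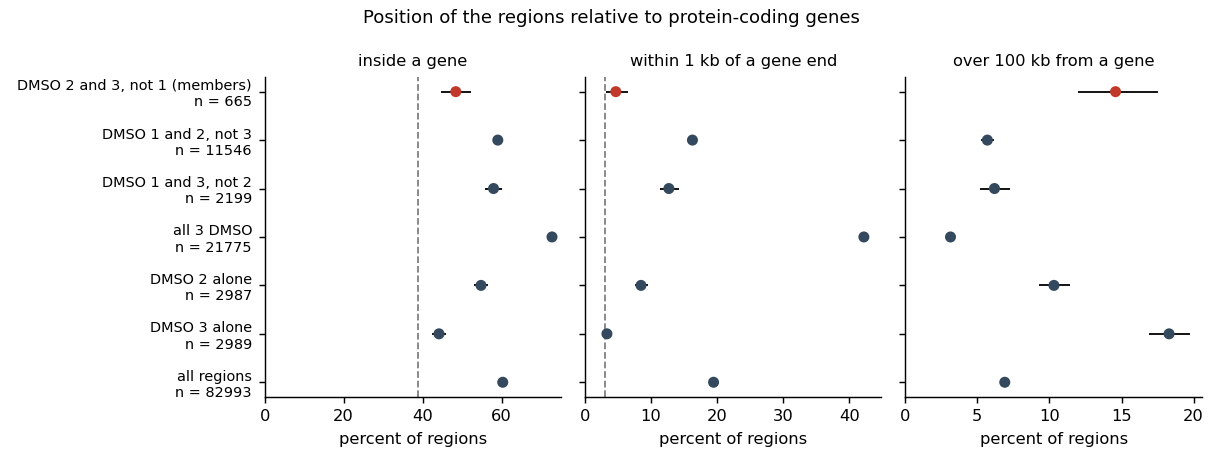
Percent of regions (x axis) inside a protein-coding gene, within 1 kb of a gene end and over 100 kb from a gene, for the members (red) and 6 other sets of regions, with exact 95% intervals; dashed lines give the share of all bases, 38.8% and 2.96%. The members stand at 48.4%, 4.66% and 14.6%, nearest to the regions of DMSO 3 alone.

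Genes that held a member were long, as were those that held a region of DMSO 3 alone. The median length of the host gene was 116 kb for members, against 73.3 kb and 70.2 kb for regions missing from DMSO 3 alone and from DMSO 2 alone and 38.1 kb for regions of all 3 DMSO libraries. It was 90.8 kb for regions of DMSO 2 alone and 130 kb for those of DMSO 3 alone. A base drawn from all gene bodies in proportion to their length lies in a gene with a median length of 139 kb. Of the 322 members inside a gene, 178 lay in a gene over 100 kb long, a count not made for the other sets. Genes of that length also hold most bases of all gene bodies, as the median of 139 kb shows. The distance of members to the nearest gene end had a median of 27.9 kb, compared with 3.16 kb for regions of all 3 DMSO libraries. For regions of DMSO 2 alone and of DMSO 3 alone it was 19.2 kb and 34.1 kb. Members were also far from constitutive chromatin, with a median of 42.8 kb to the nearest region called in all 6 libraries, against 17.3 kb and 14.9 kb for the regions missing from DMSO 3 alone and from DMSO 2 alone. That distance was 24.0 kb for regions of DMSO 2 alone and 53.9 kb for those of DMSO 3 alone. In these 3 measures members thus lay between the 2 sets called in a single DMSO library.

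Of the 300 genes that held members, 282 held 1, 14 held 2 and 4 held 3. With q at most 1e-05 in every list, 0 genes held 3. The 4 were Cdh13, Myo16, Fam107b and Sfi1. Cdh13, a cadherin without a cytoplasmic domain, spans 1185 kb and held 22 regions in all, none of them called in every library. Its 3 members had fold enrichments of 4.46 and 5.35, 4.41 and 5.28, and 4.21 and 5.16 in DMSO 2 and 3, and 1 of them was also called in tunicamycin 1, at 3.85. In that gene DMSO 1, 2 and 3 called 4, 6 and 12 regions, counts that include the members by their rule. The counts in the same order were 15, 11 and 9 in Myo16, 7, 7 and 6 in Fam107b, and 8, 9 and 10 in Sfi1. Myo16, an unconventional myosin, spans 481 kb and held 24 regions. One of its members had folds of 7.55 in DMSO 2, 5.78 in DMSO 3, 6.51 in tunicamycin 1 and 3.74 in tunicamycin 2, while the other 2 were called in no tunicamycin list.

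Fam107b was shorter than these. It spans 77.3 kb and held 11 regions, 3 of them called in all 6 libraries. Its member at chr2:3731364-3731977 had folds of 3.78 and 3.68 in DMSO 2 and 3 and of 3.81, 3.85 and 4.07 in the 3 tunicamycin libraries. Sfi1, a centriole protein, held 15 regions in 71.5 kb, 5 of them in all 6 libraries, and another member lay 4.50 kb outside the gene. These 4 members had fold enrichments from 1.86 to 4.37 in DMSO 2 and from 1.92 to 5.11 in DMSO 3. The member at chr11:3198249-3198473 held the lowest rank of all members, with a fold of 1.86 in DMSO 2 and 1.92 in DMSO 3 at −log10 q-values of 3.41 and 4.13. The lowest fold of DMSO 1 among regions of all 3 DMSO libraries, 1.98, was also assigned to Sfi1.

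The members were of middle width and low in their lists, as were other regions called in 1 or 2 DMSO libraries. Their width had a median of 432 bp (quartiles 346 and 576, range 202 to 1500), against 480 bp, 457 bp and 760 bp for the regions missing from DMSO 3 alone, missing from DMSO 2 alone and present in all 3. All regions had a median width of 387 bp, and those of DMSO 2 alone and DMSO 3 alone 274 and 286 bp. The 5 widest lay at Txnl1 (1500 bp, 18.1 kb from the gene), Vmn2r1 (1425 bp), Myh11 (1162 bp), Srpx (1155 bp) and Nkd1 (1148 bp, 21.7 kb from the gene). In these the summits of DMSO 2 and 3 lay 218, 441, 632, 55 and 301 bp apart, and each was called in 1 or 2 tunicamycin libraries. The percentile of the fold enrichment, counted from 0 for the weakest to 100 for the strongest peak of a list, had a median of 20.9 in DMSO 2 and 27.2 in DMSO 3. In DMSO 2 the median was 33.8 for regions missing from DMSO 3 alone and 17.5 for those of DMSO 2 alone. In DMSO 3 it was 25.6 for regions missing from DMSO 2 alone and 19.7 for those of DMSO 3 alone. Regions of all 3 DMSO libraries had medians of 69.4 in DMSO 2 and 60.8 in DMSO 3. Fold enrichments of members ran from 1.86 to 9.44 (median 4.22) in DMSO 2 and from 1.92 to 10.4 (median 4.35) in DMSO 3, where the highest values of any peak in those lists were 29.4 and 28.1.

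**Figure D2:**
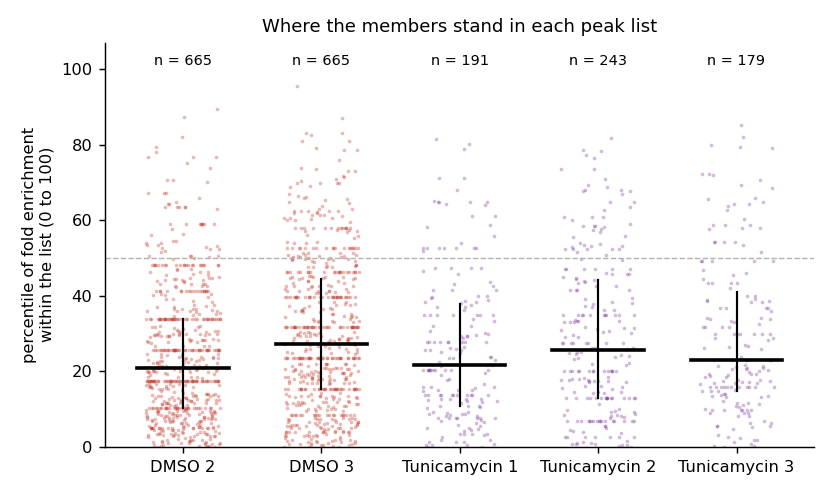
Percentile of the fold enrichment (y axis) of each member within each peak list that called it, with the median as a thick bar and the quartiles as a thin line; the dashed line is the middle of the list. Medians were 20.9 and 27.2 in DMSO 2 and 3, which chose the members, and 21.8, 25.7 and 22.9 in tunicamycin 1, 2 and 3.

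Ranked by the lower of the 2 DMSO percentiles, the median member stood at 15.4, and 24 members (3.61%) were above the middle of both lists, while 141 (21.2%) were in the lowest 20% of both. At the edge of the rule, the lowest −log10 q-value of a member was 1.53 in DMSO 2 (near B3gat2) and 1.75 in DMSO 3 (in Adamts15). Just outside it, the lowest −log10 q-value of DMSO 1 in a region of all 3 DMSO libraries was 1.67 (near Tex55), and 1 such region was under 2. The member closest to a DMSO 1 peak, in Taok3, was 33 bp from it. A DMSO 1 peak lay within 500 bp of 35 members (5.26%) and within 2 kb of 118 (17.7%), and the median distance was 10.1 kb. Of the regions missing from DMSO 2 alone, 5.64% had a DMSO 2 peak within 500 bp, and the median distance was 7.58 kb. For regions missing from DMSO 3 alone, the values for DMSO 3 peaks were 3.24% and 13.4 kb. The members lay between these 2 sets, also at 2 kb. The lists to which distance was measured differ in length, with 62478 peaks in DMSO 1, 38217 in DMSO 2 and 28501 in DMSO 3. A longer list has peaks closer together, so these distances do not show whether closeness to DMSO 1 peaks set members apart. A q-value of at most 1e-05 in both DMSO 2 and 3 was reached by 180 members (27.1%).

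The highest-ranked member lay inside Crybg3, a gene of the beta/gamma-crystallin domain family, at chr16:59549687-59549967. Its fold enrichment was 8.99 in DMSO 2, 7.88 in DMSO 3 and 7.10 in tunicamycin 3, and tunicamycin 1 and 2 held no peak. The second lay in the gene model Gm3629 with folds of 9.44 and 7.60 in DMSO 2 and 3 and 6.51, 6.54 and 8.65 in tunicamycin 1, 2 and 3. Next came the member at chr12:93576920-93577273, 682 kb from the nearest protein-coding gene, Gm40892, with folds of 7.86, 7.88, 5.63, 5.61 and 8.34 in the same order. Behind it stood a member 6.69 kb from the vomeronasal receptor gene Vmn1r2 with folds of 7.55, 6.75, 7.99, 4.05 and 7.41. Of these 4 members, 3 were called in every library but DMSO 1. Over the whole set, all 3 tunicamycin lists called 13.8% of members, against 40.2% of all regions.

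The remaining members of the 20 highest ranks were mixed in their nearest genes. Inside genes were those of Map3k20, a kinase of the stress-activated MAP kinase cascade, Gpc6, a glypican, Tex29, Myo16, Arfgef3 and Khdrbs2, an RNA-binding protein. Outside genes stood those nearest to Apba2, Tmx1, a thioredoxin-related protein of the ER membrane, Fut8, which adds core fucose to N-linked glycans, Calb2, Msgn1, Cartpt, Map3k7 (the kinase TAK1), 1500009L16Rik and Vps13a, at distances from 5.83 kb (Calb2) to 178 kb (Tmx1). Of all 20, 9 lay inside a gene, 7 had a peak in each of the 3 tunicamycin lists and 4 had a peak in none. The shares in the same order were 48.4%, 13.8% and 49.5% of all members, and 60.3%, 40.2% and 18.9% of all regions. The 4 of these 20 without a tunicamycin call were those in Map3k20, Tex29, Arfgef3 and Khdrbs2. In Map3k20 the folds were 6.88 and 5.91 with summits 5 bp apart, and a DMSO 1 peak lay 1.09 kb away. Near Fut8 the 5 folds were 5.98 and 5.80 in DMSO and 6.81, 5.61 and 5.87 in tunicamycin. At Msgn1 they were 6.35 and 5.63 in DMSO and 5.61, 6.46 and 9.19 in tunicamycin.

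Members nearest to an olfactory or vomeronasal receptor gene, large families in which some genes are close copies, numbered 7 (1.05%, 0.424 to 2.16), against 0.355% of all regions and 0.603% and 0.669% of those of DMSO 2 alone and DMSO 3 alone. Those nearest to a gene model named Gm numbered 20 (3.01%, 1.85 to 4.61), against 1.59%, 1.71% and 2.44% in the same order. A defensin gene was nearest to 0 members, which allows a share of up to 0.553%, against 0.0325% of all regions. These 3 groups were chosen after the highest ranks had been seen. How reads from repeated copies were assigned is not given in the sources used here, so the values of members in such genes are uncertain.

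The summits of DMSO 2 and DMSO 3, the positions of highest signal within the 2 peaks, were far apart for many members. Their distance had a median of 75 bp (quartiles 27 and 156), compared with medians of 31 bp and 36 bp between the 2 calling libraries in the regions missing from DMSO 3 alone and from DMSO 2 alone, and 27 bp between DMSO 2 and 3 in the regions of all 3. With lists of one length the median was 41 bp, against 22 bp and 30 bp for the regions missing from DMSO 3 alone and from DMSO 2 alone, and it was 47 bp at q at most 1e-05. Within 50 bp of each other lay 37.9% (34.2 to 41.7) of the members' summits, against 65.4%, 60.0% and 68.5%. In 5 members the peaks of DMSO 2 and 3 did not overlap each other and were joined only through a tunicamycin peak. Within bands of rank, computed only for members and regions of all 3 DMSO libraries, members again had the larger median distance. In the band from 0 to 10 of the lower percentile the median summit distance was 87 bp for members and 61 bp for regions of all 3 DMSO libraries, and in the band from 40 to 100 it was 37 and 21 bp.

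**Figure D3:**
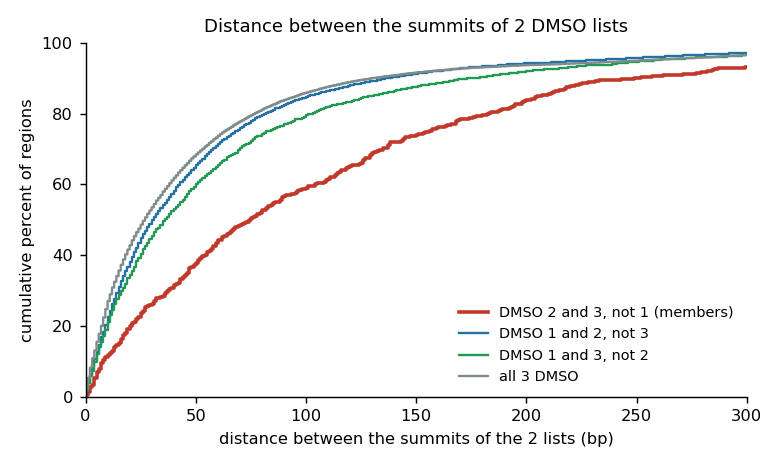
Cumulative percent of regions (y axis) by the distance in bp between the summits of 2 DMSO libraries (x axis, shown to 300 bp), for members, regions missing from DMSO 3 alone, regions missing from DMSO 2 alone, and regions of all 3 DMSO libraries (summits of DMSO 2 and 3). The member curve runs below the others, with 59.1% of summit pairs within 100 bp against 84.7%, 79.5% and 85.9%.

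The tunicamycin libraries, which the rule did not use, called few members. Tunicamycin 1 called 191 of the 665 (28.7%), against 52.6% of all regions. Tunicamycin 2 called 243 (36.5%), against 67.2%, and tunicamycin 3 called 179 (26.9%), against 55.7%. No tunicamycin list held 329 members (49.5%, 45.6 to 53.3), against 18.9% of all regions. All 3 held 92 members (13.8%, 11.3 to 16.7), against 40.2% of all regions. Since all regions include those that only tunicamycin libraries called, the sets of the same form are closer comparators. Of the regions missing from DMSO 3 alone, 5.80% were called in no tunicamycin library and 59.5% in all 3, and of those missing from DMSO 2 alone 8.96% and 51.1%. Of the regions called by DMSO 2 and by no other DMSO library, 60.2% were in no tunicamycin list, and of those of DMSO 3 alone 77.5%, so members lay between the regions of 1 DMSO library and the other regions of 2. With lists of one length, 26.8% of the 1593 members then found were in no tunicamycin list, against 12.2% and 11.1% of the regions missing from DMSO 2 alone and from DMSO 3 alone.

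**Figure D4:**
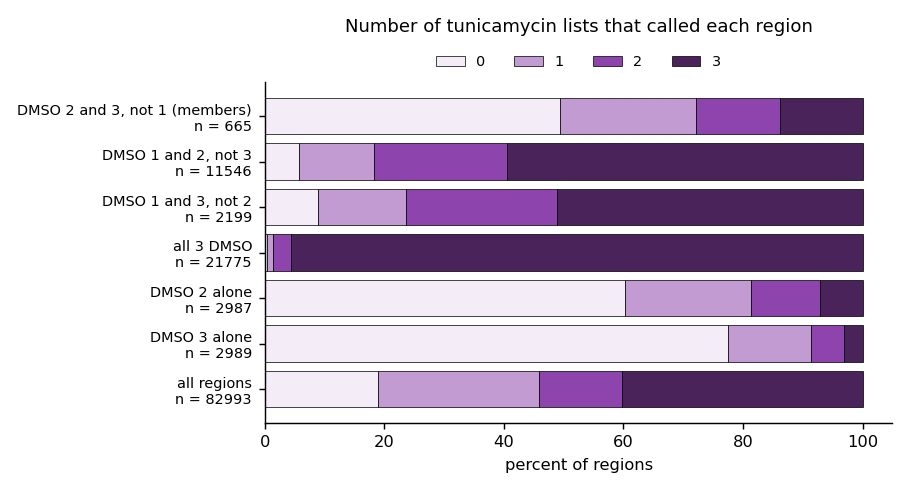
Percent of regions (x axis) by the number of tunicamycin lists, 0 to 3, that called them, for the members, 5 other sets and all regions. No tunicamycin list called 49.5% of members, against 5.80% and 8.96% of the regions missing from DMSO 3 alone and from DMSO 2 alone.

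Members and regions of all 3 DMSO libraries also differed within bands of rank, as a description. Among members in the band from 0 to 10 of the lower percentile, 13.1% (8.93 to 18.2) were called in all 3 tunicamycin libraries, and among regions of all 3 DMSO libraries in the same band 83.5%. In the band from 20 to 40 the shares were 13.7% and 92.0%, and in the band from 40 to 100, which held 59 members, 22.0% and 99.0%. The share within 1 kb of a gene end was likewise 5.41% of members and 26.7% of regions of all 3 DMSO libraries in the lowest band, and 10.2% and 51.0% in the highest. These bands were chosen after the other values had been seen.

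**Figure D5:**
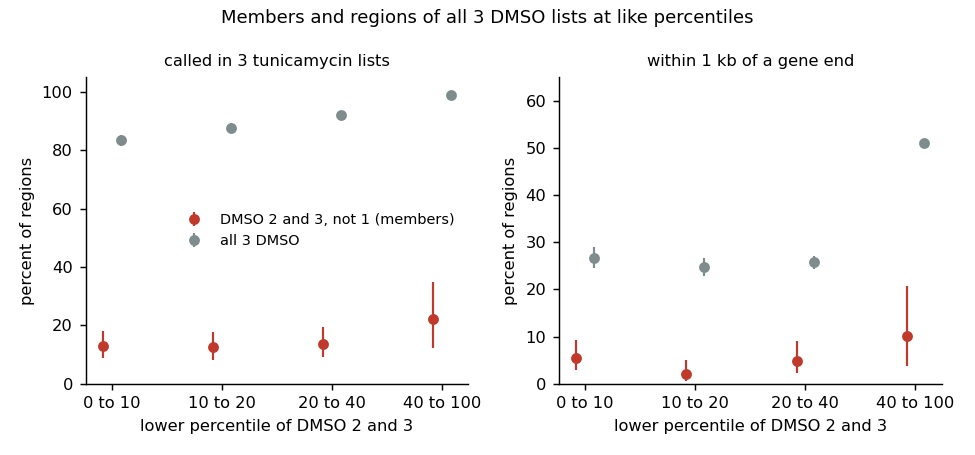
Percent of regions (y axes) called in 3 tunicamycin lists (left) and within 1 kb of a gene end (right), by band of the lower percentile of fold enrichment in DMSO 2 and 3 (x axis), with exact 95% intervals. Members (red) lie at 13.1% to 22.0% on the left where regions of all 3 DMSO libraries (grey) lie at 83.5% to 99.0%.

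Members called in all 3 tunicamycin libraries lay more often inside genes and near gene ends than those called in none, a difference that was not tested. Of the 92 members called in all 3 tunicamycin libraries, 63.0% (52.3 to 72.9) lay inside a gene and 10.9% (5.34 to 19.1) within 1 kb of a gene end. Of the 329 called in none, 45.6% (40.1 to 51.1) and 1.52% (0.495 to 3.51) did. The direction was the same in the other sets. Of regions missing from DMSO 3 alone, 60.1% and 18.3% did if called in all 3 tunicamycin libraries, and 56.9% and 12.5% if in none. Of regions missing from DMSO 2 alone, the shares were 59.3% and 15.9%, and 56.9% and 8.12%. The median summit distance was 89, 74, 62 and 43.5 bp for members called in 0, 1, 2 and 3 tunicamycin libraries. The median distance to the nearest region of all 6 libraries was 58.7, 52.9, 24.2 and 14.5 kb in that order, and the median host gene length 177, 108, 71.5 and 68.6 kb. The median of the lower percentile moved little, with 14.1, 17.5, 17.5 and 17.2. Between 0 and 3 tunicamycin libraries, the median summit distance also fell in regions missing from DMSO 3 alone, from 40.5 to 28 bp. In those missing from DMSO 2 alone it fell from 54 to 33 bp. The median distance to regions of all 6 libraries went from 18.1 to 17.3 kb and from 29.5 to 13.9 kb in these 2 sets. Among members called in 1 tunicamycin library, 77 were called by tunicamycin 2, 44 by tunicamycin 1 and 30 by tunicamycin 3, and tunicamycin 2 was the longest of the 3 lists.

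The members stood near genes of the 14 lists about as often as all regions did. A list gene was the nearest gene within 100 kb for 13 members (1.95%) and for 2.18% of all regions. Of 366 genes matched from these lists of pathways and cell types, 12 had such a member, in 6 lists. None belonged to the lists of the ER stress response, the integrated stress response, the EMP and PMP22 family, housekeeping controls, macrophages, megakaryocytes, neutrophils and monocytes, or stroma and endothelium, whose genes were nearest to 0.0337% to 0.182% of all regions per list. The HSC identity list held 3 members (0.451% of members, against 0.564% of all regions). The lymphoid list held 4 (0.602%, against 0.164%), the cell cycle list 2 (0.301%, against 0.231%), the interferon list 2 (0.301%, against 0.157%), and the lists of erythroid cells and of cytosolic ribosomal proteins 1 each (0.150%, against 0.0530% and 0.207%).

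The 3 HSC identity members were called in no tunicamycin library, as were 49.5% of all members. The one inside Prdm16, a regulator of HSC maintenance, had folds of 4.48 in DMSO 2 and 4.50 in DMSO 3 (chr4:154417242-154417811). The one 16.3 kb from Erg, an ETS factor of HSCs, had 4.75 and 3.97. The nearest DMSO 1 peak lay 7.49 kb from the Prdm16 member and 1.73 kb from the Erg member. At the erythroid regulator Gata1 the member (chrX:7971309-7971558) had folds of 4.09 and 4.22, also with no tunicamycin call.

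Of the lymphoid members, the one inside Tcf7, which encodes the T-cell factor TCF1 (chr11:52275452-52275787), had folds of 5.45 and 4.73 in DMSO 2 and 3 and of 6.03 and 3.58 in tunicamycin 1 and 2. The one 30.0 kb from Bcl11b, a factor of T-cell commitment, had 4.40 and 4.64 in DMSO and 5.63 and 4.98 in tunicamycin 1 and 2. The one 81.1 kb from Gata3 had 3.77 and 3.66 in DMSO and 3.85 in tunicamycin 1, and the one 76.5 kb from Eomes had 3.95 and 5.02 and no tunicamycin call. Regions in lymphoid list genes or within 1 kb of them were present for 18 genes in DMSO 1, 16 in DMSO 2 and 13 in DMSO 3. These lists differ in length, with 62478, 38217 and 28501 peaks. The counts also leave out regions farther away, such as the members near Bcl11b, Gata3 and Eomes, so they do not bear on these members. The part of lymphoid cells in these 4 members was not tested.

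In the cell cycle list, the member inside Cdk6 had folds of 3.89 and 4.55 in DMSO 2 and 3 and 3.73 in tunicamycin 1. The member inside Ccnd2, which encodes cyclin D2, had 3.98 and 3.23 in DMSO and 3.20 in tunicamycin 3. Near Ifnar2, a subunit of the type I interferon receptor, the 2 members were 26.6 and 33.8 kb from the gene and had 4.46 and 6.38, and 3.53 and 3.83, in DMSO 2 and 3. The first was also called in tunicamycin 3, at 5.03. The member 3.22 kb from Rps13, a protein of the small ribosomal subunit, had 6.51 and 4.78 in DMSO and 4.29 in tunicamycin 2. In each of these genes the calls in tunicamycin came from at most 1 library per member.

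Members were spread over all chromosomes. Among autosomes their share of the regions of a chromosome had a median of 0.795% and ran from 0.331% on chromosome 7 (17 of 5136, 0.193 to 0.529) to 1.20% on chromosome 18 (30 of 2499, 0.811 to 1.71). Chromosome 5 held the most members, 56, followed by chromosome 1 with 53 and chromosome 2 with 51. The X chromosome held 5 of its 1417 regions (0.353%, 0.115 to 0.822) and the Y chromosome 1 of 24. Across the 19 autosomes, members per Mb and all regions per Mb had a Pearson correlation of 0.08 and a Spearman correlation of 0.14, given as a description over chromosomes of the same libraries. Neighbouring members were a median of 1978 kb apart, and 11 pairs lay within 20 kb of each other.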

How the data were processed

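ATAC-seq peaks came as 1 list per library (3 DMSO, 3 tunicamycin), so peaks were called by library. The build is mm10, and the tools are MACS2, Picard, featureCounts, Bowtie2 2.2.9 and Trim Galore 0.4.4, per the submitters' processing notes, which give no roles or settings. The sources used here do not say how reads were filtered or shifted for the transposase. The authors deposited each peak's position, summit, display score and fold enrichment, a ratio to background. They also deposited −log10 values of p and q. The score and the p-value entered no result. Fold and q served only to rank, filter or describe peaks within a list.

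Only peaks of chromosomes 1 to 19, X and Y entered, without the 109 to 138 per list on other sequences, and peaks sharing at least 1 bp were merged. A library called a region if a peak of it lay there. Merging by bedtools 2.31.1 also gave 82993 regions, and the merging and gene assignment were tested on simulated data. The nearest gene was taken from 21887 protein-coding genes in RefSeq's table of GRCm38.p6. Of 373 entries in the gene lists 371 matched, Mx1 and Mx2 being the exceptions. No statistical test was run, and shares carry exact binomial (Clopper-Pearson) 95% intervals. The members and gene lists were chosen with earlier results of these data known. Named genes are those of the 20 highest-ranked members, genes with at least 3 members, genes of the 5 widest members, and list genes nearest to a member (up to 5 per list). Others were chosen after their values were seen. The values of 1 member of the HSC identity list are not reported here. Depth is unknown from peak lists. Alternatives were stricter q-values, lists of one length, 50% cover, summit windows, distance to DMSO 1 peaks, autosomes, other gene sets and distances, the percentile of −log10 q, and each library left out. Software was SciPy 1.17.1, pandas 2.3.3, NumPy 2.4.6 and matplotlib 3.10.9 under Python 3.11.15.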

Additional observations from a re-analysis of the deposited data

How the results depend on the processing

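Both the number of members and their make-up moved with the length of the lists and the q-value. With every list limited to the 28501 peaks of highest −log10 q, 1593 regions were members, 59.7% of them inside a gene, 14.7% within 1 kb of a gene end, 26.8% in no tunicamycin library and 50.6% in an average tunicamycin library. Their median width was 460 bp, their median summit distance 41 bp, and 12 genes held at least 3. In these lists the regions missing from DMSO 2 alone numbered 1597 and those missing from DMSO 3 alone 4088, with 12.2% and 11.1% in no tunicamycin library. Of the 665 members, 200 (30.1%) overlapped a member of these shorter lists. With q at most 1e-05 in every list, 249 regions were members, with 56.6% inside a gene, 7.23% near an end, 36.7% in an average and 43.4% in no tunicamycin library, a median percentile of 18.5, a summit distance of 47 bp and 0 genes with at least 3. With that limit in DMSO 2 and 3 alone, 180 were members, with 6.67% near an end, 41.5% in an average and 34.4% in no tunicamycin library, a percentile of 18.5, a summit distance of 47 bp and 0 such genes.

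With 50% cover of a region required, the median width was 416 bp, the summit distance 62 bp, and 26.7% of members were called in an average and 54.5% in no tunicamycin library. With windows that reached 250 bp to either side of each summit, 55.3% lay inside a gene, 19.6% near an end, 35.7% in an average and 43.3% in no tunicamycin library, at a width of 593 bp and a summit distance of 59 bp. All RefSeq genes gave 57.3% inside a gene, a distance of 2 kb gave 7.67% near an end, and the percentile of −log10 q had a median of 10.3. Autosomes alone, and members without a DMSO 1 peak within 500 bp, gave 659 and 630 members.

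Leaving out a library in turn changes the rule where a DMSO library is left out. Members numbered 665 to 22468, the share inside a gene ran from 45.0% to 72.0%, that near an end from 3.57% to 41.0%, the width from 287 to 711 bp, the percentile from 15.4 to 54.4, the average share in a tunicamycin library from 14.9% to 95.9%, the share in no tunicamycin library from 1.83% to 72.4%, the summit distance from 28 to 75 bp and the genes with at least 3 members from 4 to 1133. The high end of the number of members, which is every region of DMSO 2 and 3, came without DMSO 1. The 3665 and 3667 regions left without DMSO 2 and without DMSO 3 were called in 1 DMSO library and not in DMSO 1. Of 214 values under the alternatives, 103 stayed within the counting interval (counts: within 1.5 times) and the others moved. No paired analysis was possible because the results come from no test. The share of members that overlap an exon was not run, since exons were not used here. Depth limits all calls, as a region just under the threshold of DMSO 1 counts as missing.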
